A study of Rattus norvegicus with 8 samples.

Results

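The genes described here encode the proteins of the cytosolic ribosome. They were chosen by name, as the features of the deposited count table whose name starts with Rpl or Rps and a digit or with Rplp and a digit, or is Rpsa, without the S6 kinases and without names marked as pseudogenes. Of 110 such names, 95 had at least 10 total exon reads in at least 2 libraries and are the members, out of 32258 features in all. By name, 55 belong to the large subunit, 36 to the small subunit and 4 to the stalk of the large subunit. Of the 95, 57 carry a plain subunit name, 26 are numbered entries of a name (such as Rplp1_1 and Rplp1_2), 11 are named as paralogs or variants, and Rps19bp1 matches the name rule but encodes a protein that binds RPS19. Other ribosomal protein names are not analysed here. All 95 members passed the filter on low counts.

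RNA was taken from H9C2 cells, a cardiomyoblast line from embryonic rat heart, 2 days after transduction with a pDC316 vector. The vector carried YFP alone (YFP), or YFP fused to the nuclear receptor PPARα in its wild-type form (WT), with serine 280 changed to alanine, which takes no phosphate (S280A), or with aspartate there as a mimic of phosphorylation (S280D). Every library thus comes from transduced cells that express YFP, and every construct came from the same vector. Each group has 2 libraries of strand-specific poly(A) RNA sequencing, so n = 2 for each mean ± SD, and nothing in the labels says that they came from separate cultures, so that p-values measure the spread between these libraries, which may be technical.

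A cytosolic ribosome is built from a small subunit, which reads the mRNA, and a large subunit, which joins amino acids, with a flexible stalk of RPLP0, RPLP1 and RPLP2 proteins that recruits elongation factors. Cells need the proteins in fixed proportions, and the mRNAs of most vertebrate ribosomal proteins begin with a run of pyrimidines, the 5′ terminal oligopyrimidine (TOP) tract, through which mTOR signalling sets their translation. The genes are short and highly expressed, and mammalian genomes hold many processed copies of them, so that reads often match more than 1 place.

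The start sites below are shown because they compare the family's pyrimidine run between members called in opposite directions, and with 2 paralogs that lack it. Promoter windows in RefSeq's GRCr8 table matched 50 member names, of which 47 lie on the chromosome that the count table gives. In these 47, a run of C and T that begins with C within 5 bases of the annotated start and is at least 5 bases long was found in 26 (55.3%), against 17% of the 27457 genes in the table. The letters CTTTCC on the gene's strand within 50 bases of the start were found in 17 (36.2%), against 4.55% of all genes. On the opposite strand they were found in 2.13% against 4.47%. CTTTCC can lie inside such a run, so the counts overlap. Each line gives 15 bases before and 15 from the start onwards, 5′ to 3′ on the gene's strand, with the longest unbroken run of C and T in capitals where it has at least 5 bases.
Rplp0 (chr12:46718376-46718405, minus strand): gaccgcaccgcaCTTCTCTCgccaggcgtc
Rps14 (chr18:56498245-56498274, plus strand): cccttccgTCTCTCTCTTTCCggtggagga
Rpl28 (chr1:78083518-78083547, minus strand): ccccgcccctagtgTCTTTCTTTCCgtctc
Rps15 (chr7:10068101-10068130, minus strand): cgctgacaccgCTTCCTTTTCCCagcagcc
Rps18 (chr20:4933730-4933759, plus strand): cacgtcacttccgCTCTCTCTTCCacagga
Rpl5 (chr14:1995211-1995240, minus strand): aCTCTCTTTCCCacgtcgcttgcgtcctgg
Rpl22l1 (chr2:113683181-113683210, plus strand): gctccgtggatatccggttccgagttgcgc
Rps27l (chr8:76443643-76443672, plus strand): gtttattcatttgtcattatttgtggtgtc

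Rplp0, Rps14, Rpl28 and Rps15 were lower in S280D than in S280A, while Rps18, with a pyrimidine run at its start much like theirs, and Rpl5, whose run ends before the annotated start, were higher. Rps14 had no unique read and Rps18 a unique share of 0.051%, so their reads cannot be placed at these loci alone. The paralogs Rpl22l1 and Rps27l, which were higher in S280D than in YFP, hold no run of 5 in these 30 bases. The subunit genes Rpl11, Rpl18, Rpl26, Rpl41 and Rps16 hold none either, and they were lower in S280D than in YFP. Rpl36 and Rps19, also without such a run, were not called there. Within 50 bases of the start, Rpl18, Rpl26, Rps16 and Rps19 do hold CTTTCC, while Rpl11, Rpl41, Rpl36, Rpl22l1 and Rps27l do not. Of the 26 members with a run at the start, 10 were lower and 2 higher in S280D than in S280A, and of the 21 without one, 12 were lower and 1 higher. The medians of the log2 fold change were -0.30 and -0.43. Among all 12407 genes tested, 18% were called lower and 21.3% higher in S280D than in S280A. A match of letters is a description of the annotated window and not of where transcription began in these cells.

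The members took a smaller share of the RNA in the WT and S280D libraries than in the YFP and S280A libraries. Of total exon reads they held 4.67% and 4.35% (YFP), 3.82% and 3.75% (WT), 4.20% and 4.55% (S280A) and 3.51% and 3.64% (S280D). Both WT and both S280D libraries lie below all YFP and S280A libraries, and the S280D libraries lie below the WT libraries. On unique exon reads the share was 2.85% and 2.54% (YFP), 2.18% and 2.18% (WT), 2.56% and 2.87% (S280A) and 2.00% and 2.13% (S280D). The groups were separated in the same way, also on reads that span exon junctions (the plot of shares by read type). With 2 libraries a group an exact permutation test cannot go below p = 0.333, so no test is given. These are shares of bulk RNA, in which fewer cells of a type and less RNA per cell cannot be told apart.

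**Figure D1:**
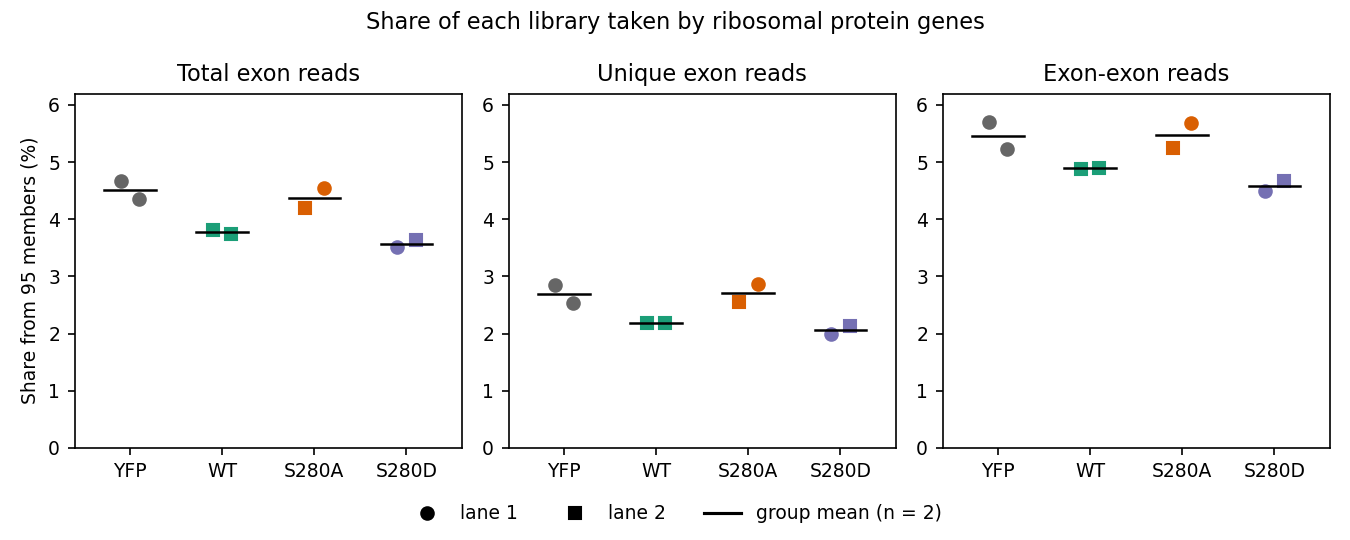
Share of each library's reads that came from the 95 members, in percent, for total exon reads, unique exon reads and exon-exon reads, by construct. Circles are lane 1, squares lane 2 and lines group means; in each panel the WT and S280D libraries lie below the YFP and S280A libraries, on total exon reads at 3.82% or less against 4.20% or more.

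Depth ran from 14018785 to 39526013 total exon reads, with the first S280D library the deepest. By the file headers lane 1 held YFP and lane 2 held WT, so that construct and lane cannot be told apart for that pair, while S280A and S280D each had 1 library in each lane. Long genes stood relatively higher in some libraries than in others: over genes, which are not independent replicates, the rank correlation (Spearman's rho) of a library's deviation from the overall mean with exon length was 0.139 to 0.247 in the WT and S280D libraries and -0.25 to -0.0607 in the YFP and S280A libraries. The members are short, with a median exon length of 527 bases against 2314 over all 12407 genes tested, and the part of exon length in the results was examined only through an offset for it. Of 15 H9C2 markers, 9 reached 1 CPM (reads scaled to library size with TMM factors) in a library and 1 was at 0. The summed level of all 15 was 11627 to 13545 CPM in YFP, 8923 to 9617 in WT, 12333 to 16337 in S280A and 8265 to 9501 in S280D. Of 7 fibroblast genes 6 reached 1 CPM. All 7 summed to 58404 to 67473, 41081 to 46725, 56597 to 65510 and 46599 to 50095 CPM in the same order. Most of these sums came from Acta2 and from the collagens Col1a1, Col1a2 and Col3a1. Other markers had the opposite order, with Postn at group means of 1618 (YFP), 2151 (WT), 1349 (S280A) and 2341 (S280D) CPM and Mef2c at 36.1, 54.1, 24.9 and 62.9 CPM. In S280D against S280A, 1 H9C2 marker was higher and 5 lower of 11 tested, and 2 fibroblast markers were higher and 2 lower of 6. The part of the markers in the members' levels was not tested. Of 4 endothelial genes 1 reached 1 CPM and none was at 0, and of 5 immune genes 1 reached 1 CPM and 1 was at 0. The sums of these lists did not exceed 1.89 and 2.15 CPM in any library. Of 4 epithelial genes 1, Krt8, reached 1 CPM, and their sum was 13.7 to 22.5 CPM.

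Per kilobase of exon, the members' mean level over the 8 libraries had a median of 208.9 CPM per kb, against 7.74 CPM per kb over all genes tested, and 77 of the 95 were above that. On total exon reads the highest was Rplp1_1, a stalk protein gene, at a mean of 9265 CPM per kb (6664 to 12412 over the libraries). Rplp0, the stalk's base, followed at 4881, then Rpl41, the smallest ribosomal protein, at 3322, Rps7 at 2374, Rpl35 at 2325 and Rps3a at 1761 CPM per kb. The ranges of Rps7 (2083 to 2740) and Rpl35 (1894 to 2854) overlap, and so do those of Rplp0 (3256 to 7849) and Rpl41 (2715 to 4004). Of the reads of Rplp1_1 only 23.7% were unique. On unique exon reads of all libraries it had 167241 over 496 bases of exon, Rpl41 168200 over 443 and Rplp0 741738 over 1093. Rplp1_1 therefore stood below both per base on unique reads. Stalk genes held 23.6% of the members' total exon reads, the large subunit 47.3% and the small subunit 29.1%.

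Of the members' total exon reads, 49.8% to 54.1% were unique in each library, against 85.5% to 87.5% over all genes. Taken per gene, the unique share had a median of 21.3% over the members, against 99.95% over the 12642 features with as many reads. It was 10% or less in 42 members (44.2%, against 4.41% of those features), and 21 members had no unique read at all. At the other end, 27 members had at least 50% and 9 had at least 90%. Among the highest were Rpl23, at 99.97%, Rps19bp1 and Rpl39l. Rpl3, which lines the peptidyl transferase centre, had 98.7%, Rplp0 92.6% and Rpl11 92.2%. Among members with no unique read are Rps6, the small subunit protein phosphorylated by S6 kinases, Rps14, Rps27a, which is made as a fusion with ubiquitin, Rplp2 and Rpl8. Each of these 5 has more than 1 exon in the table, and their values are levels of reads shared with copies.

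The members' raw reads were compared with the depth of the 2 S280D libraries. The first S280D library held 1.88 times the reads of the second, and the median gene tested had 1.89 times as many. Over the 27 members with at least 50% unique reads the median ratio was 1.79, and none had fewer reads in the deeper library. Over the 21 members with no unique read it was 1.14, and 9 had fewer reads in the deeper library. Over the 20 members with 1 exon, the form of a processed copy, it was 0.924, and 11 had fewer. Over the 11 members with no unique read and more than 1 exon it was 1.58, with 2 that had fewer, and over all 42 members with at most 10% unique reads it was 1.73, with 10 that had fewer. Rps6 had 240 and 210 reads (YFP), 233 and 265 (WT), 262 and 248 (S280A) and 175 and 154 (S280D), although S280D was sequenced the deepest. Scaled by depth, such counts are low in the deep libraries, and the part of this in the calls was not tested. Members with 1 exon held 0.529% of the members' reads.

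**Figure D2:**
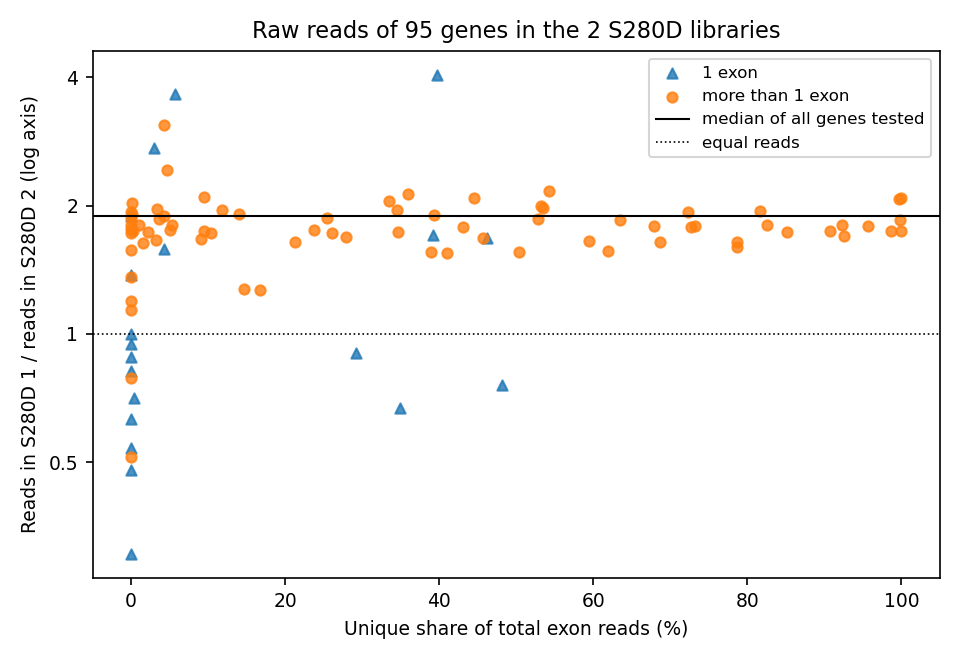
Raw total exon reads of each member in the first S280D library divided by those in the second (log axis) against its unique share in percent. Triangles are members with 1 exon, circles those with more, the solid line is the median of all genes tested (1.89) and the dotted line equal reads; members with at least 50% unique reads lie above the dotted line, while 9 of the 21 at 0% lie below it.

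Between the 2 serine 280 forms, ribosomal protein mRNAs were lower in S280D, the phosphorylation mimic, than in S280A. Of the 95 members, 44 were lower and 4 higher (edgeR quasi-likelihood test, adjusted p under 0.05), with a median log2 fold change of -0.42. Over all 12407 genes tested, 18% were called lower and 21.3% higher, and the median was -0.01. The called members included 26 lower and 3 higher of 55 in the large subunit, 14 lower and 1 higher of 36 in the small subunit, and 4 lower of 4 in the stalk. Both S280D libraries lay below both S280A libraries for 61 members (64.2%), against 37.7% of all genes. With an offset for exon length 36 were lower and 7 higher (25.5% and 17.5% of all genes), with a median of -0.31 against -0.13 over all genes, which the offset had moved by -0.12. The calls rested on 2 libraries: without the first S280D library 9 members were lower and 1 higher, and without the second S280A library 13 were lower and 1 higher, where the remaining library of the group is assumed to vary like those of the others.

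**Figure D3:**
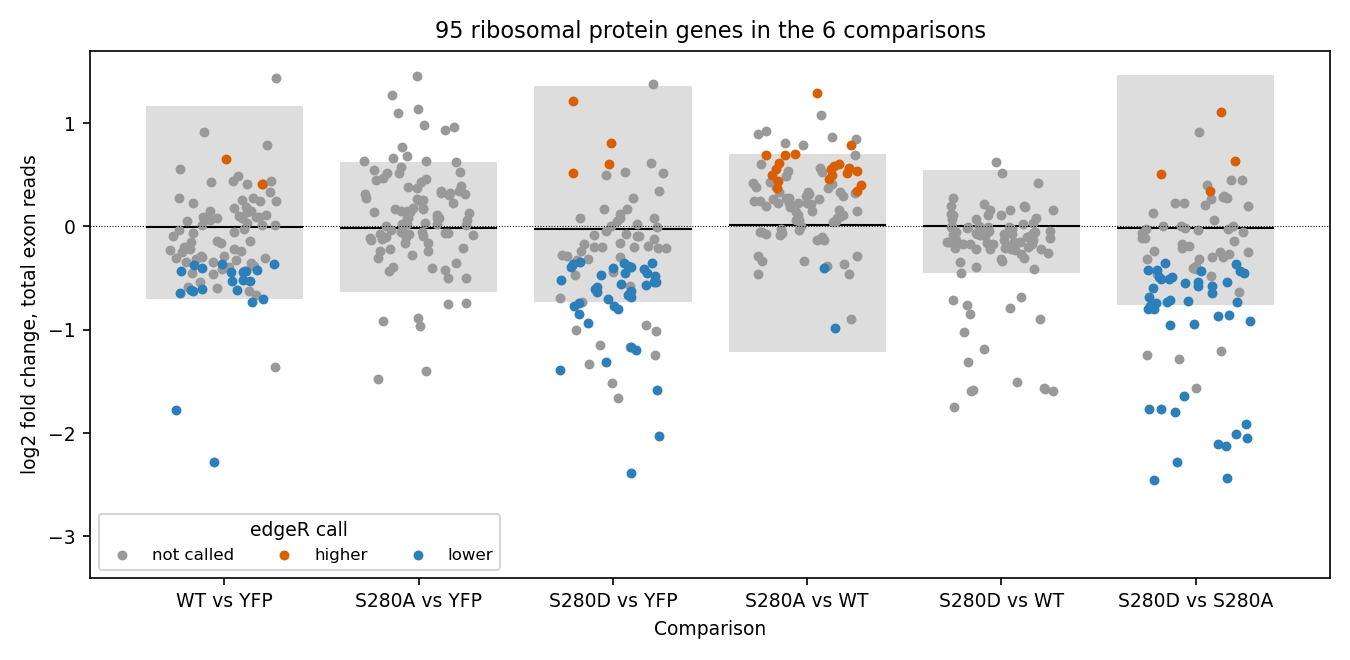
Log2 fold change on total exon reads of the 95 members in each of the 6 comparisons. Blue points were called lower and orange points higher by edgeR at an adjusted p under 0.05, grey points were not called, grey boxes span the 5th to 95th percentile of all genes tested and black lines are their medians; the members' points lie mostly below 0 in S280D against S280A (44 lower, 4 higher) and above 0 in S280A against WT (20 higher, 2 lower).

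Rplp0 (chromosome 12, 46791527 to 46794797 in Rnor_6.0, 7 exons) was at 6977 and 5237 CPM (YFP), 4074 and 4342 (WT), 5970 and 8579 (S280A) and 3559 and 3941 (S280D). Both S280D libraries and both WT libraries lie below all YFP and S280A libraries, and the 2 S280A libraries are far apart. The log2 fold change for S280D against S280A was -0.96 ± 0.18 (SE, edgeR adjusted p = 0.00362). It was -1.27 in lane 1 and -0.60 in lane 2. Rplp1_1 was at 5912 and 4986 CPM (YFP), 3943 and 4060 (WT), 4847 and 6157 (S280A) and 3305 and 3553 (S280D), with a log2 fold change of -0.68 ± 0.14 for S280D against S280A (edgeR adjusted p = 0.00533). Rplp2 and Rplp1_2 were called lower too, at -0.51 ± 0.18 and -0.91 ± 0.30, the first with no unique read.

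In the small subunit, Rpsa, also known as a laminin receptor (chromosome 8, 128806128 to 128809986 in Rnor_6.0), was at 1791 and 1497 CPM (YFP), 1090 and 1205 (WT), 1534 and 1951 (S280A) and 938 and 985.3 (S280D). Its S280D libraries were the lowest of the 8. The log2 fold change for S280D against S280A was -0.86 ± 0.14 (SE, edgeR adjusted p = 0.00231), and it was -1.06 in lane 1 and -0.64 in lane 2. Rps10_2 was lower by -0.94 ± 0.16 and Rps3, at the entry of the mRNA channel, by -0.57 ± 0.14. Rps6 was lower by -1.79 ± 0.26 (edgeR adjusted p = 0.00172), a value that rests on reads with no unique placement.

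In the large subunit, Rpl18 was at 421 and 370 CPM (YFP), 273 and 276 (WT), 353 and 452 (S280A) and 236 and 257 (S280D). Its S280D libraries lie below all others, and the log2 fold change for S280D against S280A was -0.71 ± 0.14 (SE, edgeR adjusted p = 0.00362). Rpl3 fell by 0.42 on the log2 scale and Rpl41 by 0.42. Rpl11, which together with RPL5 and 5S rRNA can bind MDM2, was at 499 and 497 CPM (YFP), 405 and 396 (WT), 484 and 534 (S280A) and 370 and 387 (S280D), a log2 fold change of -0.43 ± 0.11 for S280D against S280A (edgeR adjusted p = 0.0111). Rpl23 at -0.21 ± 0.11 and Rps27a at 0.27 ± 0.23 did not pass.

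The 4 members that were higher in S280D than in S280A were Rps18, Rpl5, Rpl39_7 and Rpl9. Rpl5 (chromosome 14, 2860964 to 2867397 in Rnor_6.0) was at 398 and 463 CPM (YFP), 580.5 and 562 (WT), 449.7 and 415 (S280A) and 643 and 589.5 (S280D). It therefore had the opposite order to its partner Rpl11, with both WT and both S280D libraries above all YFP and S280A libraries. The log2 fold change for S280D against S280A was 0.51 ± 0.12 (SE, edgeR adjusted p = 0.0079), 0.63 in lane 1 and 0.39 in lane 2. Rps18 was at 21.4 and 35.5 CPM (YFP), 48.2 and 31.5 (WT), 19.9 and 20.5 (S280A) and 45.2 and 41.8 (S280D). Its log2 fold change was 1.11 ± 0.24 (edgeR adjusted p = 0.00597), with a unique share of 0.051%. Rpl39_7 has no unique read, and Rpl9 was no longer called on unique reads (0.04, edgeR adjusted p = 0.87).

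**Figure D4:**
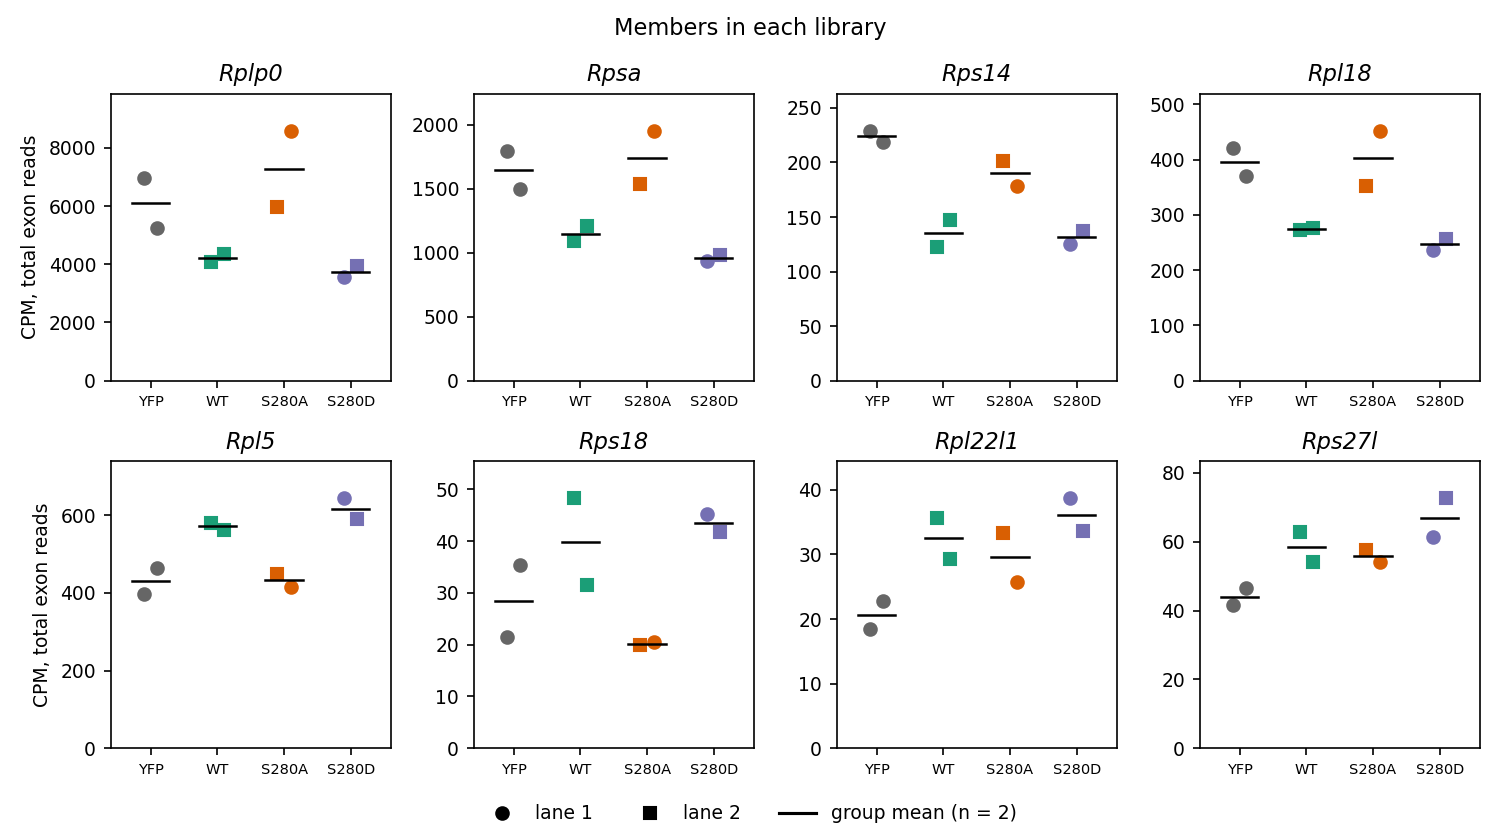
Level of 8 members in each library as TMM-scaled CPM of total exon reads, by construct, each panel on its own axis from 0. Circles are lane 1, squares lane 2 and lines group means; Rplp0, Rpsa and Rpl18 are lower in both WT and both S280D libraries than in the YFP and S280A libraries (Rpsa at most 1205 against at least 1497 CPM), and Rpl5 is higher there (at least 562 against at most 463 CPM).

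On unique exon reads 67 members could be tested, of which 25 were lower and 2 higher, with a median of -0.34, where 19.1% of 11832 genes were lower and 22.5% higher. Of the 67, 32 were called on total reads, 25 on both read types in the same direction, 7 on total reads only and 2 on unique reads only, and none was called in opposite directions. A further 16 members called on total reads had too few unique reads to be tested. Among the 27 members with at least 50% unique reads, 14 were lower and 0 higher on total reads, and 15 lower and 0 higher on unique reads. Rplp0 was at -0.99 on unique reads and Rpsa at -0.89 (edgeR adjusted p = 0.00121 and 0.000758).

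**Figure D5:**
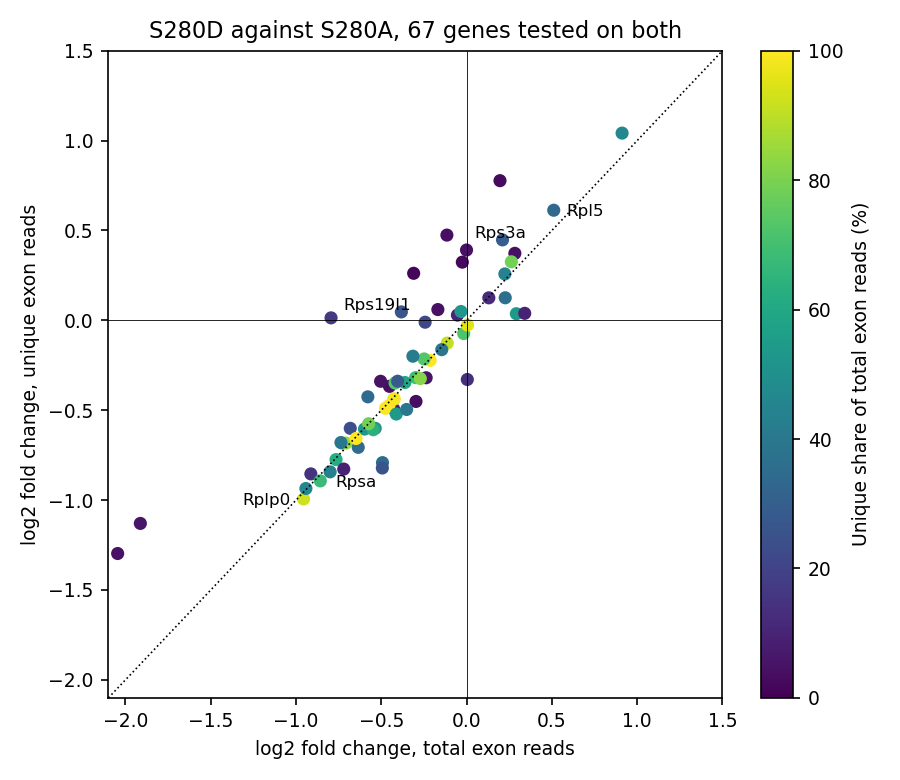
Log2 fold change for S280D against S280A on unique exon reads (vertical axis) against that on total exon reads (horizontal axis), for the 67 members tested on both. Colour is the unique share of total exon reads in percent and the dotted line marks equal values; members with a high unique share, such as Rplp0, lie near the line, while those away from it, such as Rps19l1 (-0.79 and 0.01) and Rps3a (0.00 and 0.39), have a low share.

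The value of some members depended on the read type. Rps3a, of whose reads 4.68% were unique, was at 0.00 ± 0.13 on total and at 0.39 ± 0.13 on unique reads for S280D against S280A (edgeR adjusted p = 0.998 and 0.026). Rps19l1 was at -0.79 ± 0.27 on total reads and at 0.01 on unique reads (edgeR adjusted p = 0.0369 and 0.986), from 7 to 26 unique reads a library. Rps27l3, Rpl6, Rps15al2, Rpl32_1 and Rplp1_2 kept the sign and were not called on unique reads. On exon-exon reads 28 of 69 members tested were lower and 3 higher, where 11.6% of 9466 genes were lower and 14.2% higher.

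Members with no unique read added 13 of the 44 lower calls and 1 of the 4 higher calls, and their median of -1.56 was farther from 0 than that of the 27 members with at least 50% unique reads, at -0.42. Members with 1 exon gave 9 lower calls of 20, and members with more exons 35 of 75. Without the lane, the fit gave 44 lower and 4 higher calls, and with lane as a covariate it gave 38 lower and 3 higher (13.5% and 18.8% of all genes). Within lanes, 61 members were lower in S280D in both lanes, and 40.6% of all genes were lower in both. Another 14 members were higher in both lanes, for which no share of all genes is given. The median difference was -0.59 in lane 1 and -0.27 in lane 2.

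Against YFP, the S280D construct gave 40 members lower and 4 higher, with a median log2 fold change of -0.39, where 13.7% of all genes were lower and 17.1% higher. The stalk gave 4 lower of 4, the large subunit 19 lower and 3 higher of 55, and the small subunit 17 lower and 1 higher of 36. Leading the lower calls were Rplp1_2, Rpl13a, Rps14, Rps2_2, Rpsa, Rps16, Rpl18 and Rpl28. Rplp1_2 was at 20.7 and 38.8 CPM (YFP), 5.65 and 6.62 (WT), 10.04 and 11.4 (S280A) and 4.67 and 6.87 (S280D). Its YFP libraries lie above the other 6, and the log2 fold change for S280D was -2.39 ± 0.29 (SE, edgeR adjusted p = 0.000754). Rpl13a, the L13a protein also known from the GAIT complex, was at 956 and 906 CPM in YFP and changed by -0.80 ± 0.13 (edgeR adjusted p = 0.00224). Rps14, at 229 and 219 CPM in YFP and 126 and 137 in S280D, changed by -0.77 ± 0.13 (edgeR adjusted p = 0.00228).

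On unique reads 21 members were lower and 7 higher than in YFP, where 14.8% and 18.5% of genes were, and Rps3a was among the higher at 0.90 ± 0.13 (edgeR adjusted p = 0.000396) while Rplp1_1 was no longer called (-0.26, edgeR adjusted p = 0.232). With lane as a covariate 14 were lower and 3 higher (3.02% and 10.3% of all genes), and with an offset for exon length 29 were lower and 7 higher (20.8% and 14.4%). The offset moved the median of all genes by -0.11, to -0.13, and that of the members to -0.31. Without the first S280D library 5 were lower and 2 higher, and without the first YFP library 15 and 2.

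For WT against YFP, 21 members were lower and 2 higher, with a median of -0.22, where 7.45% of all genes were lower and 12.2% higher. The lower members included Rplp1_2 at -2.28 ± 0.29 (SE), Rps14 at -0.73 ± 0.13, Rps16 at -0.70 ± 0.14, Rpl13a at -0.64 ± 0.13, Rpl18 at -0.53 ± 0.14 and Rpsa at -0.52 ± 0.14 (edgeR adjusted p = 0.00265, 0.00587, 0.00881, 0.00989, 0.0231 and 0.0297). Rpl22l1 and Rpl5 were higher. On unique reads 14 were lower and 6 higher (8.43% and 13.9% of genes). Rplp0 was at -0.54 ± 0.18 on total reads, not called (edgeR adjusted p = 0.0586), and called lower on unique reads at -0.55 (edgeR adjusted p = 0.0382). Rplp1_1 was called lower on total reads at -0.45 and stood at 0.21 on exon-exon reads, where it was not called.

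Lane and construct cannot be told apart between the WT and YFP libraries. A lane term, estimated through the S280A and S280D libraries, left 0 members called in either direction in edgeR. Of all genes 0.00806% were called lower and 0.0645% higher. At an unadjusted p under 0.05 there were 10 members, with no share of all genes given. With an offset for exon length 15 were lower (15.8%, close to the 12.9% of all genes) and 4 higher (4.21% against 11.3%). The members' median was then -0.12, against -0.09 over all genes. Without the first WT library 1 was lower, without the second 3 were lower, without the first YFP library 7 were lower and 2 higher, and without the first S280D library 10 were lower and 2 higher.

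For S280A against WT, 20 members were higher and 2 lower, with a median of 0.29, where 10.1% of all genes were higher and 15.9% lower. Rps15 led with a log2 fold change of 0.69 ± 0.15 (SE, edgeR adjusted p = 0.0119), from 461 and 504 CPM in WT to 672 and 889 in S280A. Rplp0 was higher by 0.79 ± 0.18, Rpsa by 0.60 ± 0.14, Rps3 by 0.56 ± 0.14 and Rpl18 by 0.55 ± 0.14 (edgeR adjusted p = 0.014, 0.0152, 0.0161 and 0.0165). The lower members were Rps18 at -0.98 ± 0.24 and Rpl5 at -0.40 ± 0.12 (edgeR adjusted p = 0.0167 and 0.0313). On unique reads 20 were higher and 1 lower (11.7% and 17.2% of genes), and among the 27 members with at least 50% unique reads 11 were higher on total and 12 on unique reads, with 0 lower on either.

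With an offset for exon length 17 members were higher and 2 lower, close to the 16.5% of all genes called higher, against 13.4% lower, with a median of 0.21 against 0.10 over all genes. These calls also rested on few libraries. With lane as a covariate 1 member, Rps14, was called higher (0.951% of all genes), and without the second S280A library or without the first WT library 0 were called by edgeR, while 3 were higher and 1 lower without the second WT library. On all libraries 37 members were at an unadjusted p under 0.05, and DESeq2 called 30 higher and 2 lower. For these counts and for those with a library left out, no share of all genes is given as a background.

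Neither S280A against its YFP control nor S280D against WT gave a called member in edgeR (0 of 95 each). For S280A against YFP the members' median was 0.08, and edgeR called 0.0403% of all genes higher and 0% lower. At an unadjusted p under 0.05 there were 24 members, and DESeq2 called 2 higher and 4 lower. No share of all genes is given for these last counts. Without the first YFP library edgeR called 3 members higher and 2 lower. For S280D against WT the members' median was -0.11, and edgeR called 0% of all genes higher and 0.0403% lower. Here 10 members were at an unadjusted p under 0.05, and DESeq2 called 0 higher and 1 lower, again with no share of all genes given. Rplp0 stood at -0.17 ± 0.18 for S280D against WT and Rpl5 at 0.11 ± 0.12. The 6 comparisons share libraries, so they are not separate evidence of one another.

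The subunit counts above were made by name and include the paralogs, which are described here on their own. Rpl22l1, which can take the place of RPL22 in the ribosome, was at 18.4 and 22.8 CPM (YFP), 35.6 and 29.3 (WT), 33.4 and 25.8 (S280A) and 38.7 and 33.7 (S280D). Both YFP libraries are the lowest, and the log2 fold change was 0.66 ± 0.18 in WT and 0.81 ± 0.18 in S280D (SE, edgeR adjusted p = 0.0284 and 0.0073). Rps27l, a relative of Rps27, was at 41.6 and 46.5 CPM (YFP), 62.9 and 54.1 (WT), 57.5 and 54.1 (S280A) and 61.5 and 72.6 (S280D), higher in S280D than in YFP by 0.60 ± 0.14 (edgeR adjusted p = 0.00853). Its unique share was 78.6%, and on unique reads it was higher in WT too (0.52, edgeR adjusted p = 0.0209). Rpl31l4 was higher in S280D than in YFP by 1.21 ± 0.28, with a unique share of 4.27%. Of the 11 paralogs and variants, 3 were higher and 3 lower in S280D than in YFP (17.1% and 13.7% of all genes). In S280D against S280A, 0 of the 11 were higher and 3 lower (21.3% and 18% of all genes). The lower ones on total reads were Rps15al2, Rps17l and Rps19l1 against YFP and Rps15al2, Rps27l3 and Rps19l1 against S280A, and on unique reads none of these was called. Rpl7l1 and Rpl39l, with unique shares of 95.6% and 99.7%, were not called in S280D against S280A (0.01 ± 0.12 and -0.46 ± 0.34).

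The 26 numbered entries ran from Rplp1_1, the member with the highest level per kilobase of exon on total reads, to copies with a few reads. In S280D against S280A 14 were lower and 1 higher (18% and 21.3% of all genes), with a median of -0.93. Of the 12 that could be tested on unique reads 4 were lower (19.1% of genes). Rpl35a has 5 entries and no unique read in any of them. Rpl35a_3 had 9 and 8 reads (YFP), 10 and 15 (WT), 15 and 19 (S280A) and 7 and 7 (S280D), and its log2 fold change for S280D against S280A was -2.45 ± 0.60 (SE, edgeR adjusted p = 0.01). Without the numbered entries, the paralogs and Rps19bp1, the 57 plain names gave 27 lower and 3 higher, with a median of -0.31.

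Of 18 genes tested from a list of other mRNAs with TOP tracts, which encode elongation and initiation factors and partners, 10 were lower and 3 higher in S280D than in S280A, with a median of -0.31. Eef1g, an elongation factor subunit, was at 1402 and 1190 CPM (YFP), 924 and 1041 (WT), 1345 and 1710 (S280A) and 868 and 968 (S280D), a log2 fold change of -0.73 ± 0.15 for S280D against S280A (edgeR adjusted p = 0.00412). Eef2, the translocase, changed by -0.70 ± 0.14 and Eef1d, another elongation factor subunit, by -0.61 ± 0.14. Eif3e, a subunit of initiation factor eIF3, went the other way, at 49.6 and 75.8 CPM (YFP), 127 and 111 (WT), 58.1 and 47.3 (S280A) and 145 and 106 (S280D), a change of 1.25 ± 0.21 (edgeR adjusted p = 0.00228).

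Of 29 ribosome assembly genes tested, 10 were lower and 6 higher in S280D than in S280A, with a median of -0.19. Pes1 at -0.79 ± 0.14 (SE) and Mybbp1a at -0.68 ± 0.13 were lower, and Gnl3 at 1.10 ± 0.20 and Nop58, a core protein of box C/D particles, at 0.98 ± 0.18 were higher (edgeR adjusted p = 0.00284, 0.00345, 0.00284 and 0.00331). Of 11 RNA polymerase I genes 1 was lower and 2 higher, the latter Twistnb, a subunit of the enzyme, at 1.58 ± 0.23 and Taf1d at 1.24 ± 0.31. Of 17 mTOR pathway genes 5 were lower and 3 higher, with Akt1s1, an inhibitor within mTORC1, at -0.82 ± 0.14 and Rps6kb1, the S6 kinase, at 1.40 ± 0.26. The share of all genes called, 18% lower and 21.3% higher, is the background for these counts.

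The authors' deposited table calls 41 members lower and 3 higher for S280D against S280A, 27 lower and 4 higher for S280D against YFP, 15 lower and 1 higher for WT against YFP, and 18 higher and 1 lower for S280A against WT. All 44 members that the authors' deposited table calls for S280D against S280A were also called by edgeR, none in the opposite direction, and so were 18 of its 19 for S280A against WT. The authors' deposited table also calls 1 member higher and 2 lower for S280A against YFP and 1 lower for S280D against WT, where edgeR called 0. The share of all genes that the authors' test calls is not given here. These counts therefore show only how far the members' calls overlap with those of edgeR.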

How the data were processed

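Total exon, unique exon and exon-exon reads were deposited by the authors as raw counts per gene and library in 1 table, with no normalization, per the file headers. Total reads include reads placed in more than 1 location. The genome build was Rnor_6.0, per the submitters' processing notes, while for the aligner, the annotation and the counting's strand setting the sources used here give nothing. The authors' deposited p-values (FDR-corrected) and their signed fold changes, a score with no fixed range, come from their pairwise test with tagwise dispersions, per the file headers. Exon lengths and coordinates are those of the table.

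Sample groups follow the labels, where the WT library titled 2 has the number 3 in its description. The main test, on total exon reads, was edgeR 4.0.16 under R 4.3.3 (filterByExpr, TMM, quasi-likelihood test with 1 coefficient per group over all 8 libraries, 4 residual degrees of freedom), two-sided, with Benjamini-Hochberg adjustment over all 12407 genes and a threshold of 0.05. Standard errors come from the p-value and the fold change. CPM are TMM-scaled, and within-lane differences used a pseudocount of 0.5 CPM. The smallest library held 14018785 exon reads, and reads amplified by PCR without molecular identifiers do not count independent molecules.

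Members, lists and tests were chosen with earlier results of these data known. Members named are, per comparison, up to 8 called higher and 8 lower with the smallest adjusted p, a set of stalk and well-known subunits, paralogs, numbered entries, the extremes of unique share and of level, and those whose call changed on unique reads; of other lists up to 4 called genes with the smallest adjusted p are named. Start-site sequences are from RefSeq (GRCr8), matched by symbol. Alternatives were unique exon reads, RLE factors, no filter, 1 CPM in 2 libraries, DESeq2 1.42.0, only the 4 libraries compared, a replicate block, lane as a covariate, an exon length offset, thinning to the smallest library, a 1.5-fold threshold, TMM without the members, and leaving out each library. Exon-exon reads, unique reads with lane, and shares without Rplp0 and Rplp1_1 were added after seeing the data. The fit was tested on simulated data. Results for some genes that this rule would name are not reported here.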

Additional observations from a re-analysis of the deposited data

How the results depend on the processing

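With 2 libraries a group and depth down to 14018785 reads, most member calls rest on few libraries, and members without unique reads cannot be separated from their copies at any depth. Leaving out each library in turn gave 10 to 49 called members for S280D against S280A, 7 to 46 for S280D against YFP, 1 to 34 for WT against YFP, 0 to 33 for S280A against WT, 0 to 5 for S280A against YFP and 0 to 0 for S280D against WT. Of the 48 calls for S280D against S280A 8 held in all of these, and of the 44 for S280D against YFP 5 held. The cause of the changes below was not tested. No share of all genes is given beside counts with a library left out, here or above. They show only how the number of called members moved.

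Against 48 called members for S280D against S280A, unique exon reads gave 27, exon-exon reads 31, unique reads with lane 23 and the 1.5-fold threshold 4. Against 44 for S280D against YFP, the same gave 28 on unique reads, 17 with lane, 15 on unique reads with lane and 2 at 1.5-fold. Against 23 for WT against YFP, no filter gave 39, lane as a covariate 0, unique reads with lane 0 and 1.5-fold 1. Against 22 for S280A against WT, lane gave 1, unique reads with lane 2 and 1.5-fold 0. For S280A against YFP no filter gave 10, only the 4 libraries compared 5, DESeq2 6 and exon-exon reads 4. For S280D against WT no filter gave 3 and DESeq2 1. RLE factors, the 1 CPM filter, thinning and TMM without the members kept each count within 1.5 times the main one. Only 3 member calls changed sign: Rplp1_1 in WT against YFP (0.21 on exon-exon reads), Rps19l1 in S280D against S280A (0.014 on unique reads, 0.0136 on unique reads with lane) and Rps19l1 in S280D against YFP (0.0319 on unique reads with lane).

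The mean share of reads from the members, 4.51%, 3.78%, 4.38% and 3.58% in YFP, WT, S280A and S280D, was 2.69%, 2.18%, 2.72% and 2.06% on unique reads, 5.46%, 4.89%, 5.47% and 4.58% on exon-exon reads, 3.67%, 3.15%, 3.61% and 3.01% without numbered entries, and 3.35%, 2.94%, 3.20% and 2.83% without Rplp0 and Rplp1_1, with WT and S280D below YFP and S280A each time.

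With the replicate block 46 members were called for S280D against S280A, 40 for S280D against YFP, 23 for WT against YFP and 22 for S280A against WT. The deviations of same-numbered libraries correlated at -0.17 to 0.21 between groups, so the numbers are not treated as a pairing.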
